A study of Homo sapiens with 18 samples.

Results

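The windows described here were those of the genome that were far more accessible in PEO4 than in any other line of the series. A window was taken when each of the 3 PEO4 libraries was over 2 FPKM (fragments scaled to the window length and the depth of the library) and the PEO4 mean was at least 3 times the highest mean of A2780, CP70, PEO1, PEA1 and PEA2. Of 86965 windows on chromosomes 1 to 22, 42362 passed the first condition and 1694 passed both, which is 1.95% of the windows. The count depends on the scaling of the libraries: the same rule gave 542 windows after scaling each library to a common median, 511 after quantile normalization and 565 with TMM factors, and these held 25.3%, 26% and 26.2% of the 1694. The values below are those as deposited. The members were thus selected on their accessibility, so the excess of PEO4 over the other 5 lines is a description and carries no test. The rule does not require the other lines to be closed. The highest other mean was under 1 FPKM in 1067 members (63%) but over 2 FPKM in 215 (12.7%), reaching 13.4 FPKM, so the windows are called PEO4-high rather than open only in PEO4.

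ATAC-seq, in which the Tn5 transposase inserts sequencing adapters into accessible DNA, had been run on 6 ovarian cancer cell lines with 3 libraries each and with no treatment named in the labels. PEO1 (platinum sensitive) and PEO4 (platinum resistant) were grown from tumor cells of the same patient with high-grade serous ovarian cancer, before and after the disease became clinically resistant, and both after platinum treatment. PEA1 (sensitive) and PEA2 (resistant) came from ascites of another patient, before platinum and at resistant relapse, and CP70 is a resistant derivative selected in vitro from A2780 (sensitive), 2 lines that the labels call endometrial/ovarian. All 6 were kept in RPMI-1640 with fetal bovine serum. Each is an established line, so PEO4 stands for a single resistant tumor, and what is particular to that line cannot be told apart from what goes with resistance. The labels do not say whether replicates were separate cultures, so the p-values below measure the spread between libraries, which may be technical.

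Open chromatin away from gene starts often marks enhancers, the stretches where transcription factors bind and act on promoters that can lie far away. Which enhancers are open depends on which factors a cell holds, and changes of copy number also raise or lower the reads over a whole segment of a chromosome. In bulk ATAC-seq a window that is open in more cells and one that is present in more copies cannot be told apart. AP-1 (FOS and JUN dimers), RUNX, NFI and homeodomain proteins are factor families that bind such elements through short words of DNA.

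The strongest PEO4-high windows are shown first by the DNA they hold. From the 10 runs of neighbouring members with the largest ratio, the RUNX word (TGTGGTT, or AACCACA on the other strand) nearest to the window centre is printed with its flanks where there was one, and the homeobox word TAATTA where there was none. The capitals mark the word, and each line is the plus strand of GRCh37 (the build of the files, hg19).
MAPK4 intron, chr18:48253894-48253954: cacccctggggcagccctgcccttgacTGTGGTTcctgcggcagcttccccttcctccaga
Between KCNJ2 and SOX9, chr17:68783669-68783729: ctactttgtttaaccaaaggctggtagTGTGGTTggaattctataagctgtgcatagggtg
KLHL29 intron, chr2:23787143-23787203: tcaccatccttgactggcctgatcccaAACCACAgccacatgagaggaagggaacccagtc
Near TTLL7, chr1:84025434-84025494: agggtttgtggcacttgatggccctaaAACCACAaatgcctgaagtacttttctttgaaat
Near COG6, chr13:40413850-40413910: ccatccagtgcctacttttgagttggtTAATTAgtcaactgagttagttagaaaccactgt
Near IBTK, chr6:82841195-82841255: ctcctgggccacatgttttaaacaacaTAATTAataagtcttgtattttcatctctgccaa
LRP1B intron, chr2:141015557-141015617: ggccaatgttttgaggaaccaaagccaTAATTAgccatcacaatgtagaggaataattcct
Near SCARB1, chr12:125243463-125243523: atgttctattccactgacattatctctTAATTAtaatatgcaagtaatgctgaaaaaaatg
The window near SOD3 held neither word, and the window near HAS2 is described by its values alone.

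The central 300 bases of the window with the largest ratio of all, chr18:48253851-48254150, are given whole because the signal in PEO4 was the most exclusive there: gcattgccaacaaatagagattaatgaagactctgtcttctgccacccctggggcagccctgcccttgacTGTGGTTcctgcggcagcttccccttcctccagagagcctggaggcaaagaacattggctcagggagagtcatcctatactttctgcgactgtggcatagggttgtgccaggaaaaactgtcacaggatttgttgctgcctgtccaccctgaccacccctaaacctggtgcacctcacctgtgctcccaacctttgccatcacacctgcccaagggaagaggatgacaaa. The RUNX word is in capitals, and the stretch held no AP-1, NFI or homeobox word.

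To set beside these, the 3 members with the largest ratio among the distal ones that hold the NFI word (TTGGC followed after any 5 bases by GCC) and lie on chromosomes whose sequence is shown here are given, with the word in capitals.
Near SLC38A4, chr12:47268600-47268660: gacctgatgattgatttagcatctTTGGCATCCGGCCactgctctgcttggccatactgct
Near ADGRB3, chr6:68598599-68598659: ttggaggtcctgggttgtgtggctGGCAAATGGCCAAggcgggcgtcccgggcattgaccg
AHDC1 intron, chr1:27917546-27917606: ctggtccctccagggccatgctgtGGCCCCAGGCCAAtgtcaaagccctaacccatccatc
The AP-1 word (TGANTCA) is shown in the 3 windows with the largest ratio that hold it among those meeting the same rule for PEO1, called PEO1-high. In these windows PEO1 stood at 12.9 to 14.2 FPKM and PEO4 at 0.186 to 0.527 FPKM.
Near TBX3, chr12:115664977-115665037: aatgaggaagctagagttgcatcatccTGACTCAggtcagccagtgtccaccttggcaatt
Near TMEM132C, chr12:128597860-128597920: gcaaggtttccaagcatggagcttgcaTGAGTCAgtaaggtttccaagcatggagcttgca
Near DOK6, chr18:67235544-67235604: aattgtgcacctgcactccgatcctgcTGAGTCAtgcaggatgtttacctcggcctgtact

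The libraries held between 8963079 (PEO1, replicate 3) and 60435027 reads (A2780, replicate 3), and the PEO4 libraries 17183948, 20815763 and 20054583. A single read was therefore worth 0.048 to 0.0581 FPKM in PEO4 and 0.0873 to 0.111 FPKM in PEO1. The share of reads that fell in the tabled windows ran from 8.38% to 10% in A2780, from 32.9% to 35.9% in PEO4 and from 38.9% to 40.8% in PEO1, and the median FPKM over all windows was 0.683, 2.24 and 2.83 in A2780, PEO4 and PEO1. The starts of 7 of 8 epithelial and serous marker genes had a window in the table (PAX8, WT1, EPCAM, KRT7, KRT8, KRT18 and CDH1, but not MUC16), and in PEO4 these windows lay between 3.49 and 20.9 FPKM. The PEO1 mean was above every PEO4 library at PAX8 (7.9 FPKM), EPCAM (11.3 FPKM) and KRT7 (5.94 FPKM). It was below every PEO4 library at WT1 (16.5 FPKM), KRT8 (7.34 FPKM), KRT18 (6.03 FPKM) and CDH1 (3.03 FPKM). Of 7 blood, endothelial and stromal markers only CD14 had one, at 2.21 to 2.74 FPKM in PEO4.

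Over the 1694 members the median signal was 3.71 FPKM in PEO4, against 0.707 FPKM in PEO1 and 0.406 to 0.47 FPKM in the other 4 lines. The PEO4 means ran from 2.03 to 48.9 FPKM, with 511 members under 3 FPKM and 155 over 10. The 3 PEO4 libraries had medians of 3.72, 3.74 and 3.74 FPKM, and the coefficient of variation between them was 9.8% at the median member. PEO1, the line from the same patient, was the highest of the other 5 lines in 948 members (56%), CP70 and PEA2 in 234 each, PEA1 in 198 and A2780 in 80.

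**Figure D1:**
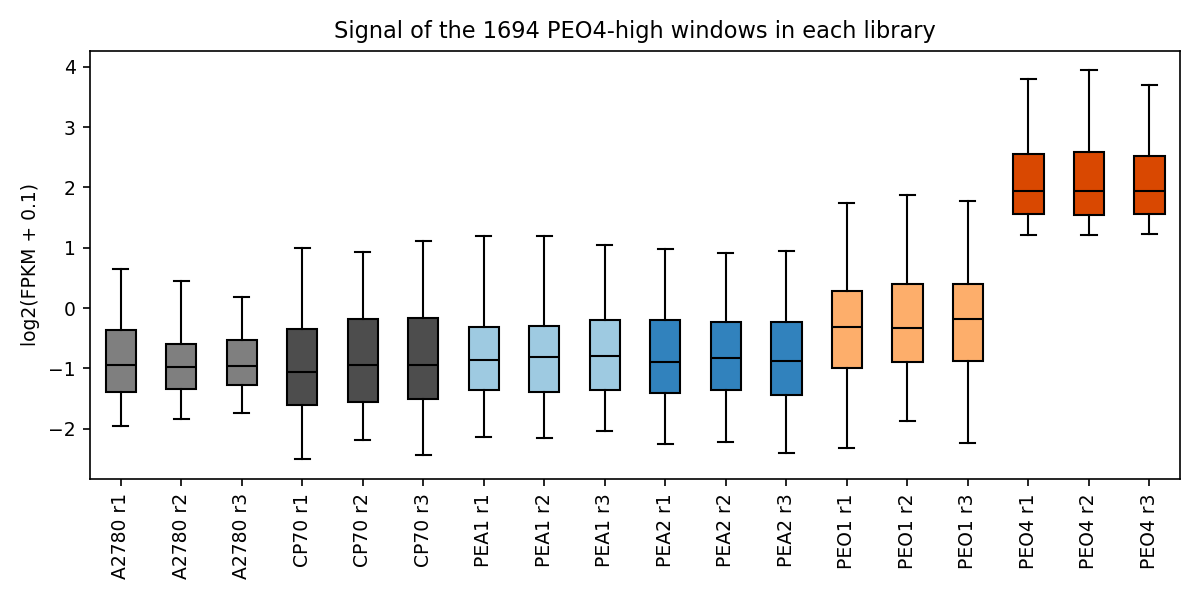
Distribution of log2(FPKM + 0.1) over the 1694 PEO4-high windows in each of the 18 libraries (r1 to r3 are replicates); boxes span the quartiles, the line is the median and whiskers reach the 5th and 95th percentiles. The boxes of the 3 PEO4 libraries lie above those of the other 15, and PEO1 is the next highest line, with a median of 0.707 FPKM.

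The ratio of PEO4 to the highest other mean had a median of 4.28 and quartiles of 3.5 and 5.76, and its highest value was 29.5. It was under 4 in 714 members, at least 5 in 603 and at least 10 in 57. At the edge of the rule, the 3 members just inside lay near CSMD3, SYN3 and TSEN15, where PEO4 stood at 2.5, 2.91 and 2.31 FPKM and PEO1, the highest other line, at 0.832, 0.97 and 0.77 FPKM. The 3 windows just outside lay in ZNF385B, over the promoter of CEBPB and near ZNF703, where PEO4 stood at 5.22, 14 and 2.64 FPKM and PEO1 at 1.74, 4.66 and 0.881 FPKM. The windows on the 2 sides of the cut-off thus differed little in ratio.

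When the rule was applied to 2 replicates of every line and read in the third, the selected windows kept their excess in the library that had not been used. Leaving out replicate 1, 2 and 3 gave 1836, 1811 and 1851 windows. In the unused PEO4 library, 93.2%, 93.3% and 93.4% of them were over 2 FPKM. PEO4 was at least 3 times the highest other line in 74.3%, 78.1% and 72.7%, and above that line in 1836 of 1836, 1810 of 1811 and 1851 of 1851 windows. Over all windows of chromosomes 1 to 22, the unused PEO4 library was above the highest other line in 26.3%, 28.2% and 27%. The median ratio in the unused replicate was 3.63, 3.79 and 3.6, with 0.1 FPKM added to both sides.

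The window with the largest ratio, chr18:48253500-48254500, lies in an intron of MAPK4, which encodes an atypical MAP kinase, and 92.4 kb from the start of MRO. PEO4 stood at 16.6, 17.2 and 16.3 FPKM, and the other 15 libraries lay between 0.32 FPKM, in a PEA1 library, and 0.712 FPKM, in a CP70 library. In the 3 PEO1 libraries it read 0.708, 0.436 and 0.557 FPKM, so the 2 lines of this patient did not overlap.

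The second window, chr17:68783400-68784400, is intergenic, in the long stretch without protein-coding genes between KCNJ2, a potassium channel gene, and SOX9, whose transcription factor directs cartilage and testis development. It lies 618 kb from the start of KCNJ2 and 1333.3 kb from that of SOX9. PEO4 stood at 8.02, 6.96 and 7.22 FPKM, and the highest of the other 15 libraries was 0.506 FPKM, a PEO1 replicate.

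The other 8 of the 10 largest ratios were also intronic or intergenic. In an intron of KLHL29, chr2:23787000-23788000 read 15.4, 17.1 and 14.7 FPKM in PEO4 and at most 1.26 FPKM elsewhere, in a CP70 library. In an intron of CCDC149 42.4 kb from SOD3, the gene of extracellular superoxide dismutase, chr4:24839100-24840100 read 6.28, 7.15 and 5.38 FPKM in PEO4 and at most 0.446 FPKM elsewhere. The means of the other 5 lines lay between 0.652 and 1.08 FPKM at the first of these windows and between 0.186 and 0.318 FPKM at the second.

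Near COG6, a Golgi transport gene, the window read 4.53, 4.61 and 4.63 FPKM in PEO4 and at most 0.38 FPKM in any other library. Near IBTK it read 4.71, 5.38 and 4.93 FPKM, and elsewhere at most 0.385 FPKM. In LRP1B, which encodes a large lipoprotein receptor, the intronic window read 6.39, 6.43 and 5.43 FPKM in PEO4 and at most 0.557 FPKM elsewhere, with no read at all in 1 library each of CP70, PEA2 and PEO1. The groups did not overlap at any of these windows, as the rule itself nearly requires.

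Near HAS2, which makes hyaluronan, the 3 PEO4 libraries read 7.67, 6.29 and 7.47 FPKM against at most 0.636 FPKM elsewhere, in PEA2. Near TTLL7, a tubulin polyglutamylase gene, they read 8.14, 9.12 and 7.97 FPKM against at most 0.682 FPKM. Near SCARB1, the receptor for high-density lipoprotein, they read 8.37, 10.9 and 8.22 FPKM against at most 0.758 FPKM. The highest other library belonged to CP70 at both TTLL7 and SCARB1.

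**Figure D2:**
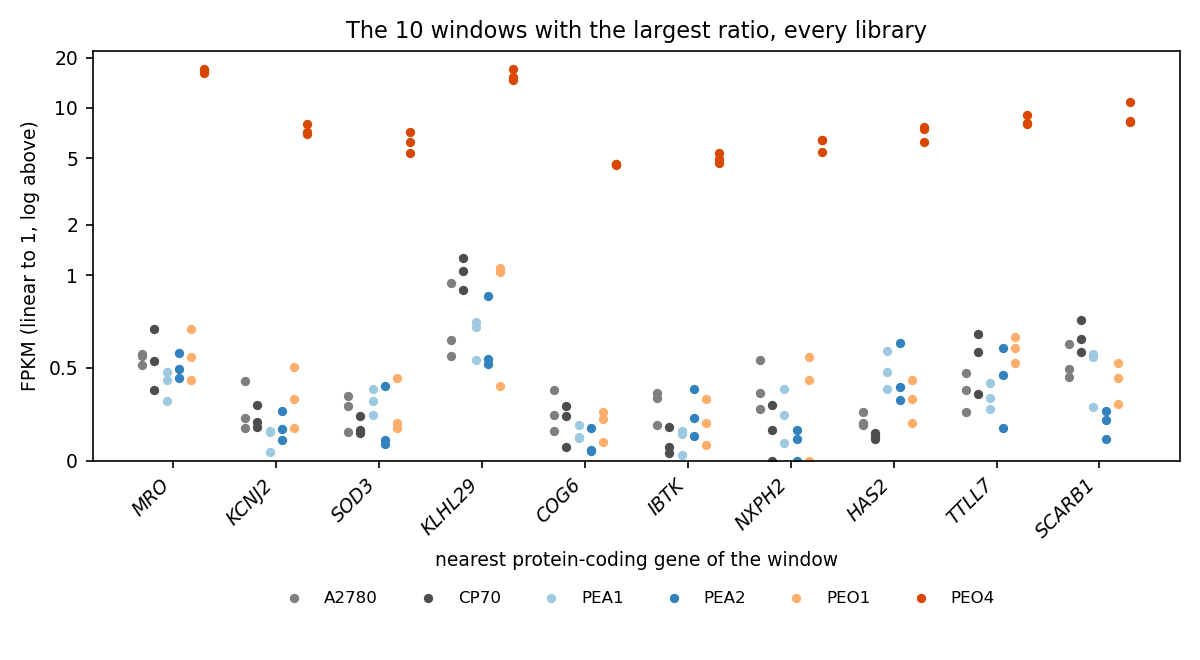
FPKM of each of the 18 libraries at the 10 windows with the largest ratio, named by the nearest protein-coding gene; the axis is linear up to 1 FPKM and logarithmic above, and each point is 1 library. The PEO4 points lie between 4.53 and 17.2 FPKM and every other point lies at or under 1.26 FPKM.

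The PEO4-high windows lay far from genes more often than the table as a whole. Intergenic windows made up 57.8% of members (95% Wilson interval 55.4 to 60.1) and 37% of all windows on chromosomes 1 to 22. Introns held 34.7% of members (32.4 to 37) and 37.2% of all windows. Promoters, from 1 kb before to 100 bases after a protein-coding start, held 62 members, or 3.66% (2.87 to 4.66), against 18.9% of all windows. These shares rest on protein-coding genes. With all transcripts counted, intergenic windows were 35.9% of members and 22.8% of all windows, introns 49.9% and 43.2%, and promoters 7.56% and 24.6%. The intervals cover counting error only, and neighbouring windows share 101 bases, so they are too narrow for windows that come in runs.

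Members lay at a median of 87.6 kb from the nearest protein-coding start (quartiles 24.4 and 250 kb), against 18.4 kb for all windows, and 185 of them (10.9%) lay over 500 kb away, against 3.94% of all windows. Their median GC content was 45.9%, against 50.4%, and only 4.96% were CpG-rich, against 23.3%. The dinucleotides GG and CC, at which platinum adducts form, numbered 126 in each kilobase at the median member and 152 at the median window. Compared with intronic and intergenic windows that are not CpG-rich, called distal from here on, the 1535 distal members differed little, with 121 against 129.

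The PEO1-high windows were placed much like the PEO4-high ones. Of the 3357 PEO1-high windows, 58.2% were intergenic (56.5 to 59.8) and 3.37% were promoters (2.81 to 4.03), both with intervals that overlap those of the members. The 2049 PEA2-high windows were intergenic in 53.8% (51.6 to 55.9) and promoters in 1.51% (1.07 to 2.14). Their median distance to a start was 62.5 kb, against 109 kb in the PEO1-high windows and 87.6 kb in the members. Both sets depend on the scaling too. Median scaling left 493 PEO1-high and 1042 PEA2-high windows, and TMM factors gave 428 and 2236. The shares of these 2 sets, here and for the words of DNA below, are those as deposited only.

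Distance from genes and ratio went together within the members. Promoters were 7.28% of the 714 members with a ratio under 4, 2.12% of those from 4 to 5, 0.425% of those from 5 to 8 and 0 of the 132 above 8. The most accessible members were of another kind: of the 42 over 20 FPKM in PEO4, 20 were promoters, 25 were CpG-rich and 29 lay on chromosome 8. Their ratio had a median of 3.28 (quartiles 3.13 and 3.8), against 4.3 in the other members, and 35 of the 42 were under 4, but it reached 7.81.

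Words of DNA set the PEO4-high windows apart from the other distal windows. The search took 23 motifs, each on both strands, in the whole 1001 bases of a window, and a match is a description of the letters and not a bound site. The AP-1 word was present in 35.7% of the 1535 distal members (33.3 to 38.1), against 49.3% of the 57076 distal windows and 68.5% of the distal PEO1-high windows (66.8 to 70.1). Between the 2 lines of the same patient, the share was thus higher in the windows of the sensitive line. The distal PEA2-high windows, those of the other patient's resistant line, held it in 54.2% (51.9 to 56.4).

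The RUNX word went the other way. It was present in 26.4% of distal members (24.3 to 28.7), against 20.3% of all distal windows, 22.5% of PEA2-high windows (20.6 to 24.4) and 18.4% of PEO1-high windows (17.1 to 19.8). The NFI word was present in 6.78% of distal members (5.62 to 8.14), against 4.46% of all distal windows, 3.54% of PEO1-high and 2.96% of PEA2-high windows. For both words the share in members was the highest of the 4 sets, although the RUNX interval just met that of the PEA2-high windows.

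The homeobox word TAATTA was present in 28.5% of distal members (26.3 to 30.8), against 23.4% of all distal windows, but PEO1-high windows held it as often, at 28.6%. It was more frequent at higher ratios, with 22% of the distal members of ratio 3 to 4, 30.4% of those from 4 to 5, 32.9% of those from 5 to 8 and 37.9% of those above 8. The AP-1 word was less frequent over the same classes, with 39.8%, 35.7%, 32.9% and 26.5%. The C/EBP word (TTGCNNAA) was present in 45.5% of distal members and 40.8% of distal windows. The SOX word ACAATG was present in 42.2% of distal members and 40.2% of distal windows.

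The remaining words stood close to the share in all distal windows or below it. The TEAD word GGAATG was in 48.6% of distal members, against 50.8% of distal windows. The GATA word AGATAA was in 42.3%, against 41.2%. The core GCGTGAC of PAX8, the lineage factor of the serous ovary, was in 3.13%, against 3.24%.

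Words of factors tied to interferon, inflammation and epithelia were not more frequent in members either. The NF-kB word GGGANTTCC was in 2.87% of distal members, 4.59% of distal windows and 9.82% of distal PEA2-high windows. The IRF word (GAAA, any 2 bases, GAAA) was in 13.5% and 14.1% of members and distal windows. The STAT word TTCCNGGAA was in 2.87% and 3.43%, and the GRHL word AACNNGTT was in 14.6% and 15%.

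The forkhead word TGTTTAC was in 11.9% of distal members, 13.4% of distal windows and 18.7% of distal PEA2-high windows. The HNF1 word (GTTAAT, any base, ATT) was in 0.977% and 1.31% of members and distal windows. The octamer ATGCAAAT was in 5.86% and 6.01%. The letters CATG, any 4 bases, CATG, which are tied to no factor here, were in 2.8% and 2.71%. The nuclear receptor word AGGTCA was in 54.4% and 53.1%.

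Apart from the NFI word, words rich in G and C were somewhat less frequent in members or close to the share in distal windows. The ETS word CCGGAAG was in 3.78% of distal members and 5.42% of distal windows. The CTCF core AGGGGGC was in 14.6% and 17.4%, and the KLF/SP word CCACCC in 56.3% and 59.5%. The E-box CAGCTG was in 44.2% and 45.1%, and the E-box CACGTG in 9.97% and 12.9%.

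Base composition moved with these shares, and their part in the gaps was read within classes of GC content, which were set after the shares were seen. At a GC content of 40 to 44% the AP-1 word was in 39.6% of members and 57.9% of all distal windows, and at 44 to 48% in 38.4% and 52.7%. The RUNX word was in 29.9% of members and 23% of all distal windows at 40 to 44%, and in 33.1% and 22.3% at 44 to 48%, but in 19.4% and 19.8% at 48 to 52%. Over 52% GC the NFI word was in 11.7% of members and 6.37% of all distal windows. The homeobox word was in 49% and 45.3% under 40% GC, a smaller gap than over all windows. Without chromosome 8 the shares in members were 35% for AP-1, 25.7% for RUNX, 6.52% for NFI and 28.1% for the homeobox word.

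**Figure D3:**
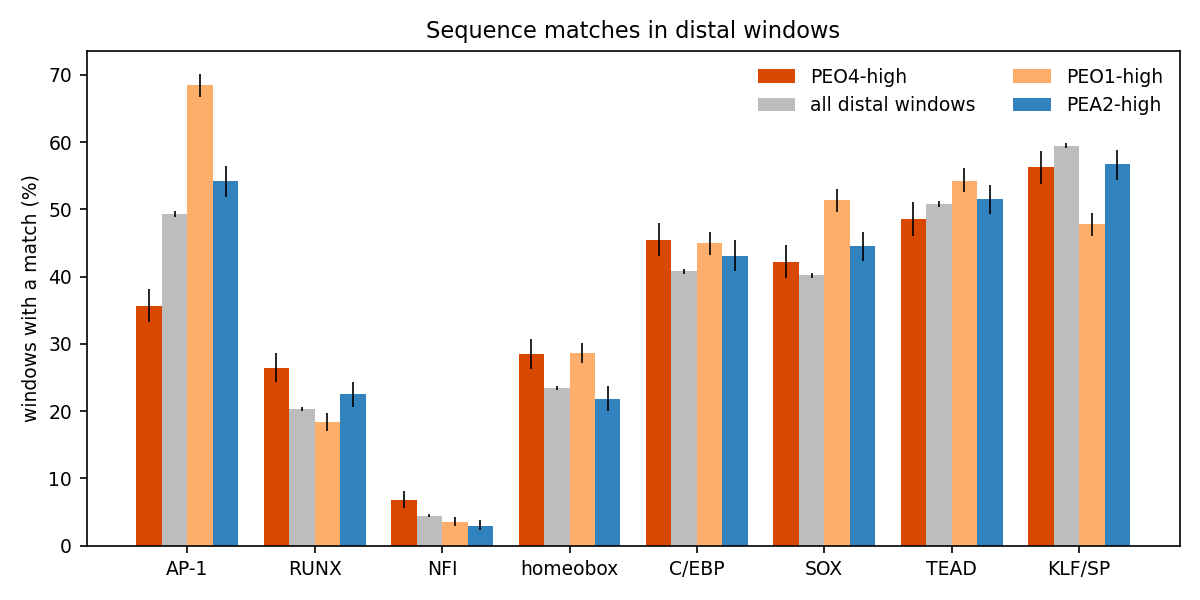
Percent of distal windows (intronic or intergenic, not CpG-rich) that hold each word, in PEO4-high windows, all distal windows, PEO1-high and PEA2-high windows; bars are shares and lines their 95% Wilson intervals. AP-1 was lowest in the PEO4-high windows (35.7%) and highest in the PEO1-high windows (68.5%), while RUNX and NFI were highest in the PEO4-high windows.

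The members were spread over all 22 chromosomes but not evenly. Chromosome 8 held 296 of them, or 17.5%, and 4.76% of its windows were members, against 1.95% overall. Chromosomes 21 (3.94%, 25 members), 17 (3.01%, 116 members) and 6 (2.88%, 132 members) followed, and chromosomes 16 (0.372%) and 22 (0.395%) had the fewest. On these 4 richer chromosomes the windows that were not members also stood higher in PEO4 relative to PEO1, with a median log2 of 0.09, 0.7, 0.34 and 0.09 (chromosomes 8, 21, 17 and 6), against -0.27 over all chromosomes. Chromosomes 19, 20 and 16 were also above -0.27, at 0.32, -0.05 and -0.03, while 1.01%, 1.33% and 0.372% of their windows were members, so a raised median did not always go with many members. Copy number was not measured here, and its part in these shares was not tested.

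**Figure D4:**
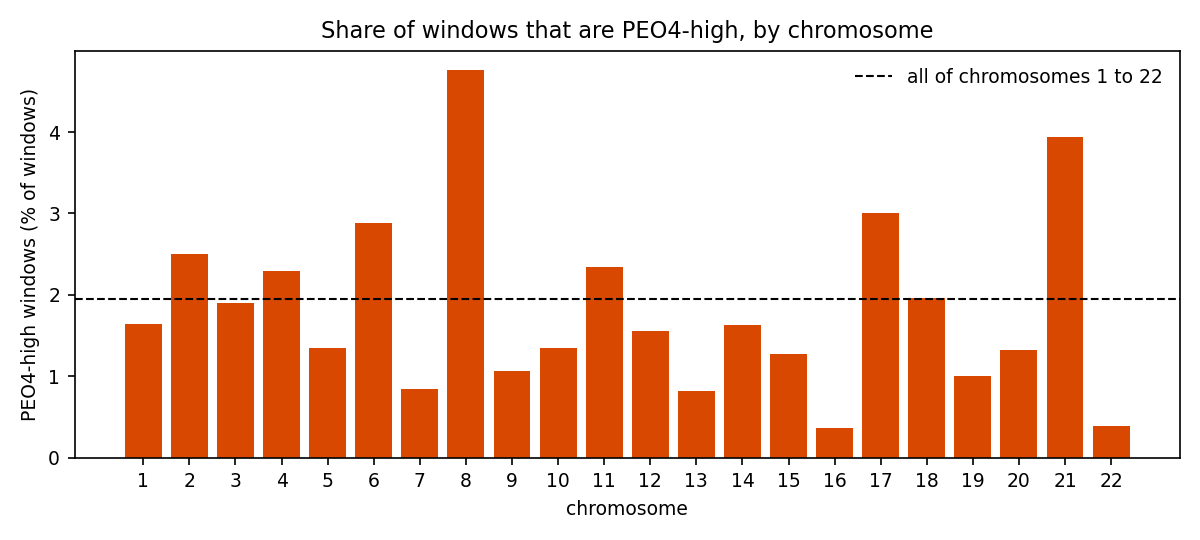
Percent of the tabled windows of each chromosome that are PEO4-high; bars start at 0 and the dashed line is the share over chromosomes 1 to 22 (1.95%). Chromosomes 8 (4.76%) and 21 (3.94%) stand highest.

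Cut into bins of 5 Mb, the stretch with the most members was chr17 from 70 to 75 Mb, with 48 among 502 windows (9.56%), near SOX9, MRPL38 and SLC16A5. The other windows of this bin had a median log2 of PEO4 over PEO1 of 0.8. At the end of the long arm of chromosome 8, from 145 to 150 Mb, 37 of 282 windows (13.1%) were members and the other windows stood at 1.45 on that scale. From 140 to 145 Mb, 44 of 1020 windows were members and the others stood at 1.37. In these 3 bins most windows were higher in PEO4 than in PEO1, not the members alone. The lowest of the bin medians against any other line was 0.8, 1.28 and 0.2 in the same order.

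Of the 49 bins with over 5% members, 6 stood above 0.5 on that scale, 12 from 0 to 0.5 and 31 at or below 0. From 125 to 130 Mb of chromosome 8, which holds MYC, 35 of 444 windows (7.88%) were members while the rest stood at 0.14, and from 135 to 140 Mb 21 of 233 (9.01%) while the rest stood at -0.01. On chromosome 17 from 75 to 80 Mb, with 27 members, the rest stood at 0.75, and on chromosome 4 they stood at 0.56 from 0 to 5 Mb (19 members) and at 0.34 from 5 to 10 Mb (21 members). Over all members, 326 (19.2%) lay in bins whose other windows stood above 0.5, against 9.3% of all windows. Among the 62 promoter members 43 did (69.4%), and among the 1535 distal members 231 (15%). The promoters in the set thus sat mostly in stretches that stood higher in PEO4 than in PEO1, and the distal members mostly outside them. The share of all promoter windows that lay in such bins was not counted.

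**Figure D5:**
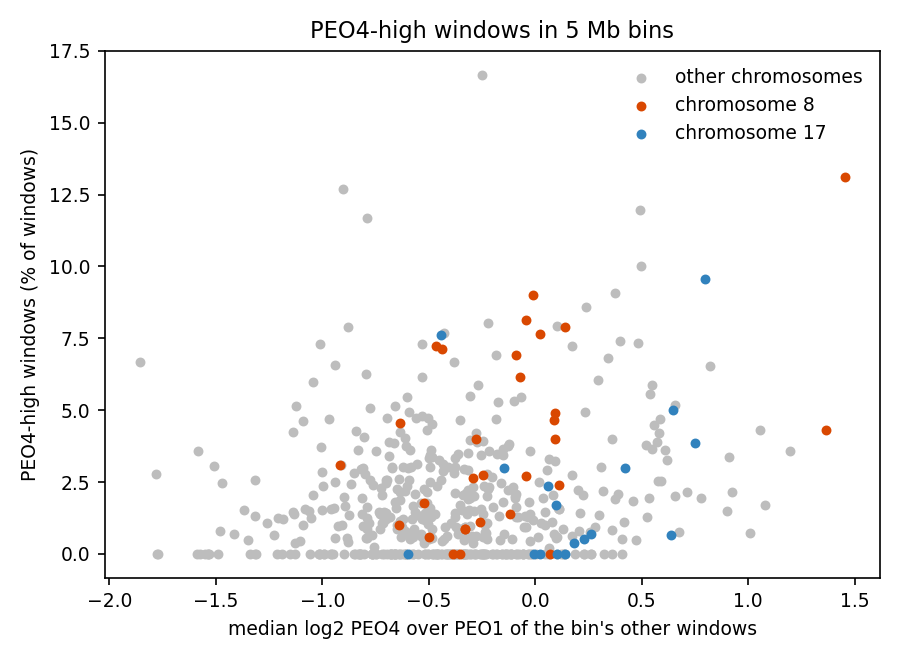
Each point is a 5 Mb bin with at least 20 windows (549 bins); the horizontal axis is the median log2 of PEO4 over PEO1 of the bin's windows that are not members (0.1 FPKM added), the vertical axis the percent of its windows that are PEO4-high. The bins at the end of chromosome 8 (13.1% and 4.31%) lie far to the right, while many bins with over 5% members lie near or below 0.

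Neighbouring members formed 1309 runs, of which 970 were single windows, 305 had 2 windows and 34 had 3 or more. The longest, of 5 windows, lay in an intron of GPC1, a heparan sulfate proteoglycan gene, at chr2:241392600-241398100. PEO4 stood at 5.39 to 12.5 FPKM over its windows and the highest other line at 1.27 to 3.16 FPKM. Of the 10 runs of 4 windows, 5 were at the end of chromosome 8, by GPT, ZFTRAF1, LY6E, PLEC and LRRC24, with ratios between 3.02 and 4.37. The other 5 lay near MRPL38 and SLC16A5 on chromosome 17, SH3BP2 on chromosome 4, AHDC1 on chromosome 1 and C2orf50 on chromosome 2, where PEO4 reached 6.98 to 23.7 FPKM. In the 5 runs of chromosome 8 PEO4 reached 24 to 32.4 FPKM and the highest other line 6.69 to 10.1 FPKM.

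By nearest gene, the members gathered around 1008 protein-coding genes. AHDC1, which encodes a protein with AT-hooks, and MYC, which encodes the growth-promoting transcription factor, had 13 each, and PLEC, RAB28, SOX9, TRPS1 and ZFAT had 8 each, followed by KCNV1 with 7. These clusters differed in how the windows around them stood against PEO1.

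The 13 members of AHDC1 all lay in its introns, within 47 kb of chromosome 1 (chr1:27882900-27929800), at 3.42 to 17.5 FPKM in PEO4 against 1.05 to 5.19 FPKM in the highest other line. The strongest, chr1:27894600-27895600, read 18.3, 17.9 and 16.2 FPKM in PEO4 and 5 FPKM in PEO1. The 24 other windows within 100 kb of these members had a median log2 of PEO4 over PEO1 of 2.03. The stretch around the members thus also stood higher in PEO4 than in PEO1, by more than its 5 Mb bin (0.4). The PLEC members, near the gene of the cytolinker plectin, read 8.53 to 47.9 FPKM, and the 94 other windows around them stood at 1.53 against PEO1. Against PEA1 and PEA2 these 94 windows stood at 0.31 and 0.43, under the medians of 0.88 and 0.54 over all windows that are not members, while around AHDC1 the values were 2.32 and 2.36. Against A2780 and CP70 the windows around AHDC1 stood at 1.57 and 1.06 and those around PLEC at 1.21 and 0.74. The medians over all windows that are not members were 1.52 and 1.17 there.

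The 13 MYC members lay 109 to 849 kb from the MYC start, between chr8:128637900 and chr8:129598300, at 3.06 to 9.55 FPKM in PEO4 and 0.483 to 1.88 FPKM in the highest other line. The 130 other windows around them stood at 0.01 against PEO1, but at 2.5 and 2.18 against A2780 and CP70 (1.52 and 1.17 over all windows that are not members) and at 0.83 and 0.81 against PEA1 and PEA2. The strongest read 9.36, 9.02 and 10.3 FPKM in PEO4 and a mean of 1.34 FPKM in PEO1. Around TRPS1, a GATA-type repressor gene, the 46 other windows stood at -0.41 against PEO1 and at 2.54, 2.61, 1.04 and 1.43 against A2780, CP70, PEA1 and PEA2, and the strongest member, chr8:115691400-115692400, had a ratio of 12.7.

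The 8 members nearest to SOX9 (chr17:70117161-70122557) lay 38.3 to 368 kb from its start. The closest, chr17:70155000-70156000, read 5.17, 6.14 and 5.48 FPKM in PEO4 and had means of 0.388 to 0.524 FPKM in the other 5 lines, a ratio of 10.7. The strongest, chr17:70418700-70419700, read 15.1, 16.1 and 15.3 FPKM in PEO4, and PEA1 followed with a mean of 4.09 FPKM. PEA1, PEA2 and PEO1 all had means over 2 FPKM at the second window and under 1 FPKM at the first. The 43 other windows around SOX9 stood at 0.55 against PEO1.

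Gene starts were rare among the members. Only 52 members held the start of a protein-coding gene, 21 of them on chromosome 8, 7 on chromosome 6 and 6 on chromosome 17, and their median ratio was 3.25, against 4.31 in the other members. The 10 with the highest signal were all near the end of chromosome 8, and the strongest held the start of MAFA, a transcription factor of insulin-producing cells. It read 48.4, 56.5 and 41.9 FPKM in PEO4 and means of 11.7 FPKM in PEO1, 9.63 in PEA1 and 5.11 to 5.53 FPKM in the other 3 lines. The others were RECQL4 with LRRC14, LRRC14 alone, CYC1, EEF1D, FAM83H, ZC3H3, TMEM276, JRK and LY6E, with ratios of 3.03 to 3.48. The bins that hold these promoters had medians of 1.37 and 1.45 for the log2 of PEO4 over PEO1 among their other windows.

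The genes of 9 lists were read for a member within 100 kb of their start, which 1447 of 18625 protein-coding genes (7.77%) had. Such a member can lie nearer to another gene than to the listed one. For genes of the Müllerian and serous lineage this held for 5 of 18 (27.8%). The start of EMX2, a homeobox gene of the developing urogenital tract, lay in the member chr10:119301300-119302300, which read 6.74, 7.01 and 6.72 FPKM in PEO4 and at most 1.73 FPKM in any other library. FOXJ1, the master regulator of ciliated cells, had a member over its exon that read 8.14, 9.36 and 9.17 FPKM in PEO4 and 2.53, 1.92 and 2.34 FPKM in PEO1. An intron of WT1, a marker of serous tumors, held one at 4.3 ± 0.402 FPKM in PEO4 (SD, n = 3) and 1.07 FPKM in PEO1, although the WT1 start itself was open in both lines. FOLR1, which encodes a folate receptor, and PGR, which encodes the progesterone receptor, had members at means of 2.41 and 2.35 FPKM. The FOLR1 window lay in an intron of FOLR2, its nearest gene.

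For epithelial identity 6 of 21 genes (28.6%) had a member. The tight junction genes CLDN4, CLDN3 and CLDN7 had members 5.53, 48.3 and 32 kb from their starts, at 2.93, 8 and 7.06 FPKM in PEO4. KRT7 had one 38.6 kb away at 7.51 FPKM, and the transcription factor genes GRHL1 and ELF3 had theirs 6.82 and 74.4 kb away at 3.83 and 7.34 FPKM. Only the CLDN4 and GRHL1 windows had the listed gene as their nearest start. The CLDN3, CLDN7, KRT7 and ELF3 windows lay nearer to STX1A, YBX2, KRT80 and GPR37L1. The KRT7 start itself read 4.65, 4.61 and 3.49 FPKM in PEO4 and a mean of 5.94 FPKM in PEO1. The CLDN3 window read 8.37, 8.49 and 7.12 FPKM in PEO4 and a mean of 0.958 FPKM in PEO1, a ratio of 8.35.

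The mesenchymal list had 1 gene of 20 with a member, SNAI1, whose product represses E-cadherin. Its start lay in chr20:48599100-48600100, which read 23.1, 26.5 and 18.4 FPKM in PEO4, 7.39, 7.07 and 7.8 FPKM in PEO1, 7.63, 6.39 and 5.51 FPKM in PEA1 and 1.78, 1.94 and 1.57 FPKM in A2780. The promoter was open in PEO1 and PEA1 too, and the ratio of 3.06 only just met the rule.

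The promoter of EMX2 is printed as a promoter member of the lists, from 250 bases before to 50 bases from the start on GRCh37, on the plus strand. The KLF/SP word CCACCC, which 37.9% of 18625 promoters of this length held on either strand, had no match in it. The stretch does hold the homeobox word TAATTA, and no word is set in capitals here.
EMX2, chr10:119302007-119302306: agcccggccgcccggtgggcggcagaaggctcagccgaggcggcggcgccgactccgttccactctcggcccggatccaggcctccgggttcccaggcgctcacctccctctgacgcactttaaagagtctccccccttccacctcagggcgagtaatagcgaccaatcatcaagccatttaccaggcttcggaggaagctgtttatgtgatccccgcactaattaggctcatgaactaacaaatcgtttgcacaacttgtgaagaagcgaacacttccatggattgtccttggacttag

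In the WNT pathway 7 of 57 genes (12.3%) had a member, among them the ligand WNT11, the receptors FZD4, FZD6 and LGR4, the negative regulators AXIN2 and DKK4, and the factor TCF7. The WNT11 window read 6.92, 9.17 and 8.07 FPKM in PEO4 and at most 0.935 FPKM elsewhere, a ratio of 10.8. FZD4 and AXIN2 had theirs at 6.78 and 3.09 FPKM, with ratios of 6.87 and 6.04. Receptor tyrosine kinases had 4 of 54 (7.41%), close to the share of all genes, with RET at 3.72, FLT4 at 2.92, FLT1 at 2.52 and DDR1 at 3.23 FPKM.

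Of 22 genes of the Fanconi anemia and BRCA response 1 had a member (4.55%), NBN, a subunit of the complex that senses double-strand breaks, whose intron held a weak window of 2.27, 2.11 and 2.09 FPKM in PEO4. None of 27 genes of platinum transport and glutathione had one, and the closest was 152 kb from ABCB1, the drug efflux pump. SOX9 and SOX18 were the 2 of 18 SOX genes (11.1%), and THY1 the 1 of 15 genes of other cell types (6.67%). With lists of this size a gene more or less moves the share by several percentage points.

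Of the genes that the study names beside SOX9, SPHK1, the sphingosine kinase gene, had a member 11.1 kb from its start, in an intron of UBE2O at chr17:74391300-74392300. It read 15.9, 17.1 and 15.2 FPKM in PEO4, 3.14, 2.97 and 3.34 FPKM in PEO1 and at most 1.06 FPKM elsewhere. The nearest member was 510 kb from CCDC80, 777 kb from VEPH1, 845 kb from PARP9, 877 kb from TLE4, and farther from BCAM, DDX60L, MAP1A and THBS1.

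The comparisons between the other lines give how the PEO4-high windows stood in those lines. All 89428 windows were fitted together by limma on log2(FPKM + 0.1), and a window was called at a log2 difference over 2 and a Benjamini-Hochberg adjusted p under 0.001, the thresholds of the study. The rule caps how high a member can be in these lines, so few calls of large size were possible at members of low signal. The table also holds only windows over 2 FPKM in at least 2 libraries. Every member meets this through PEO4 alone, while windows low in PEO4 had to meet it through other lines. The counts beside the shares of all windows are thus a description that the selection partly fixes.

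Between CP70 and A2780, the pair selected in vitro, 0 of 1694 members were called by limma, against 0.191% of all windows called higher and 0.199% called lower. At an unadjusted p under 0.05, 368 members passed (21.7%, against 40.5% of all windows), 225 of them higher in CP70, and edgeR on the recovered reads called 6, all lower. Of all 89428 windows edgeR called 115 higher and 563 lower. At the looser thresholds of 1 and 0.05, 14 members were higher and 42 lower, where 5.51% and 2.26% of all windows were.

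Between PEA2 and PEA1, the pair from the other patient, 4 members were called higher and 4 lower in the resistant line, against 9.23% and 1.15% of all windows. This balance depends on the scaling and the tool: after centring each library on its median 2 were higher and 37 lower, and edgeR called 6 higher and 43 lower. Of all 89428 windows, 3855 were higher and 2697 lower after centring, and edgeR called 7178 higher and 2393 lower. At the looser thresholds 102 and 136 were called, against 27.6% and 8.23% of all windows. The median log2 difference was -0.06 over the members and 0.3 over all windows. The lower count rested partly on single libraries: it was 9 without PEA1 replicate 3 and 8 without PEA2 replicate 1 or 3, and the higher count was 9 without PEA2 replicate 2.

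The 2 called members described here are among the 3 of this pair with the smallest adjusted p. In an intron of ESPN, which encodes an actin-bundling protein, chr1:6507900-6508900 read 0.577, 0.343 and 0.432 FPKM in PEA1 and 2.53, 3.53 and 3.37 FPKM in PEA2, a log2 difference of 2.57 ± 0.227 (SE, limma adjusted p = 4.98e-14). Near MANEA, chr6:96084900-96085900 read 0.288, 0.187 and 0.575 FPKM in PEA1 and 2.69, 2.2 and 2.48 FPKM in PEA2 (2.59 ± 0.287, limma adjusted p = 4.81e-11). Both are among the 4 members called higher in PEA2, beside the 4 called lower.

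PEO1 was compared with the mean of A2780, CP70, PEA1 and PEA2 to describe how the sensitive line of the same patient stood at the members. In limma 72 members were called higher and 8 lower, against 30.6% and 1.72% of all windows. At the looser thresholds 513 were higher and 65 lower, against 63.5% and 7.57%. The median log2 difference was 0.58 over the members and 1.44 over all windows. The cap on PEO1 in the rule and the entry of members into the table through PEO4 contribute to this gap by construction. The balance of calls depends on the scaling: once each library was centred on its median, 1 member was higher and 138 lower, and edgeR called 5 higher and 162 lower. Of all 89428 windows, 4110 were higher and 9484 lower after centring, and edgeR called 5642 higher and 10212 lower. Lower calls thus outnumbered higher ones over all windows too.

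The 3 members with the smallest adjusted p in that comparison were all on chromosome 8. Near KCNQ3, chr8:133564500-133565500 read 7.08, 8.38 and 8.02 FPKM in PEO1 and 41.8, 39.2 and 40.7 FPKM in PEO4, with at most 1.54 FPKM in the other 4 lines (3.18 ± 0.175, limma adjusted p = 3.78e-23). Near PEX2, chr8:77805900-77806900 read 4.65, 5.41 and 5.13 FPKM in PEO1 and 17, 16.1 and 20.8 FPKM in PEO4, with at most 0.654 FPKM elsewhere (3.56 ± 0.209, limma adjusted p = 4.65e-22). The intron of PPP1R16A near GPT read 6.98, 8.38 and 7.58 FPKM in PEO1 and 33, 35.9 and 28.1 FPKM in PEO4 (2.82 ± 0.167, limma adjusted p = 7.33e-22). At these windows both lines of the patient were open and PEO4 was the more so.

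Whether the members changed differently in the 2 other pairs was tested as a difference of differences. The change from PEA1 to PEA2 exceeded that from A2780 to CP70 in 15 members and fell below it in 26, against 10.7% and 3.81% of all windows. With edgeR the counts were 30 and 31 members, and 11416 and 4110 of all 89428 windows. The 2 windows described here are among the 3 with the smallest adjusted p. A promoter of SEPTIN9, chr17:75368700-75369700, read 5.54, 5.3 and 3.69 FPKM in PEA1 and 1.48, 1.1 and 1.46 FPKM in PEA2, against 2.49, 3.27 and 2.35 FPKM in A2780 and 3.94, 3.23 and 3.48 FPKM in CP70 (-2.15 ± 0.287, limma adjusted p = 1.77e-08). The window over the start of GNL1, chr6:30523500-30524500, fell from 8.2, 7.51 and 5.8 FPKM to 2.86, 3.24 and 2.75 FPKM in the PEA pair while it went from 2.7, 3.33 and 2.03 FPKM to 5.98, 4.55 and 4.82 FPKM in the A2780 pair (-2.16 ± 0.29, limma adjusted p = 1.97e-08).

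The contrast of PEO4 with PEO1 is part of the rule and is given for its size alone. The median fold of PEO4 over PEO1 was 5.17. Of the 1694 members 1123 (66.3%) passed the 2 and 0.001 thresholds upward and 0 downward, where 2.5% and 5.2% of all windows passed. Of the 2232 windows that passed upward, 50.3% were members, so about as many windows again rose from PEO1 to PEO4 without being PEO4-high among all 6 lines.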

How the data were processed

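The authors aligned the ATAC-seq reads of 18 libraries to hg19 (Bowtie2 and Picard, per the submitters' processing notes) and deposited FPKM of 89428 windows of 1001 bases on a 900-base grid, each over 2 FPKM in at least 2 libraries. At a fixed length the deposited values are proportional to RPM, and whole reads were recovered from them (within 0.01). Windows were placed with GENCODE release 44 (protein-coding genes). limma 3.58.1 was fitted on log2(FPKM + 0.1) with all libraries and no block; edgeR 4.0.16 on recovered reads was an alternative. Tested on simulated data for PEA2 against PEA1 (89428 windows), 197 of 200 changed windows were recovered, with 1 false call. The changed windows all had a mean over 1 FPKM in this pair, and the set change was larger than the calling threshold. The recovery thus does not speak for low windows or for changes near the threshold. Recovery at the members alone was not tested. Their medians were 0.469 FPKM in PEA1 and 0.47 FPKM in PEA2, and 229 of 1694 had a mean over 1 FPKM in this pair. Runs joined members with starts at most 1800 bases apart. Named windows were those with the largest ratios, longest runs, strongest gene starts, genes with most members, both sides of the cut-off, the nearest member of each list and, in each comparison, the smallest adjusted p; other listed genes and the printed sequences were chosen after their values were seen. The members and lists were chosen with earlier results of these data known. Equally numbered libraries of different lines did not deviate together (correlations of -0.16 to 0.125 over 45 pairs), so numbers were not taken as pairs. A window and a sequence that the naming rule or the lists would give are not reported here. Motif shares after median scaling or without chromosome 8 were added after seeing the data.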

Additional observations from a re-analysis of the deposited data

Results flagged for a closer look

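At 15 PEO4-high windows the change from PEA1 to PEA2 was above that from A2780 to CP70, and at 26 it was below, by the limma test of the difference itself. Of all windows 10.7% and 3.81% were called so, larger shares than among the PEO4-high windows. With edgeR the counts of PEO4-high windows were 30 and 31. Without PEA2 replicate 2 the 15 became 23. On chromosome X, which the rule leaves out, 11 of 2460 windows (0.447%) met the same thresholds, against 1.95% on chromosomes 1 to 22.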

How the results depend on the processing

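The number of PEO4-high windows depended on the scaling. It was 1694 as deposited, 542 after scaling each library to a common median (429 of them among the 1694), 511 after quantile normalization, 565 with TMM factors, and 1338 with the median of each 5 Mb bin removed. The other limits gave 2008 windows at a minimum of 1 FPKM, 636 at 4 FPKM, 4024 at a ratio of 2, 980 at a ratio of 4, and 888 when the lowest PEO4 library had to be 3 times the highest other library. Leaving out each library in turn gave 1672 to 1889. The cause of the change with scaling was not tested; the share of reads in the table differs between lines as given above.

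Counting all transcripts, promoters were 7.56%, introns 49.9% and intergenic windows 35.9% of members. At a ratio of 4 promoters were 1.02%, introns 31.4%, intergenic windows 64.1% and CpG-rich windows 2.14%. At 4 FPKM promoters were 8.65%, intergenic windows 49.7% and CpG-rich windows 12.4%, and after median scaling introns were 30.1%, intergenic windows 64.4% and CpG-rich windows 3.87%. Without each library in turn promoters were 2.65% (without PEO4 replicate 2) to 4.45%, introns 34% to 34.9%, intergenic windows 57.2% to 59.5% and CpG-rich windows 3.72% (without PEO4 replicate 2) to 5.98%. The AP-1 share of distal members was 33% at a ratio of 4 and 42.5% after median scaling, still below the 49.3% of all distal windows, and the RUNX share 25.9% and 25.8%, above 20.3%.

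For CP70 against A2780, the thresholds of 1 and 0.05 gave 14 members higher and 42 lower, median centring 1 lower and edgeR 6 lower. For PEA2 against PEA1, the looser thresholds gave 102 and 136, and a pseudocount of 0.5 gave 0 and 0. Median centring gave 2 and 37, a mean over 1 FPKM 3 and 2, and edgeR 6 and 43. For PEO1 against the other 4 lines, the looser thresholds gave 513 and 65, a pseudocount of 0.5 12 and 0, median centring 1 and 138, a mean over 1 FPKM 20 and 0, and edgeR 5 and 162. For the difference of the 2 pairs, the looser thresholds gave 154 and 194, and a pseudocount of 0.5 gave 0 and 1. Median centring gave 5 and 42, a mean over 1 FPKM 1 and 15, and edgeR 30 and 31. Of all 89428 windows, the looser thresholds called 23828 and 17691 there, median centring 7090 and 5532, and edgeR 11416 and 4110. PEO4 was higher than PEO1 at 1694 members with the looser thresholds and at 584 with a pseudocount of 0.5. Of all 89428 windows, 8837 and 793 were. The rule itself asks for a difference of the looser size, so the 1694 is no separate support. A filter on the mean leaves fewer members to call, and a larger pseudocount shrinks the differences of low windows by its construction. The counts over all windows moved too, as given above for PEA2 against PEA1 and for PEO1 against the other 4 lines.

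Without each library in turn, the counts were 0 higher and 0 to 1 lower for CP70 against A2780, where the 1 appeared without CP70 replicate 1 or 3, 3 to 9 and 3 to 9 for PEA2 against PEA1, 69 to 77 and 7 to 11 for PEO1, 10 to 23 and 18 to 31 for the difference of the pairs, and 1103 to 1135 for PEO4 against PEO1. With the replicate number as a block, the counts were 13 higher and 26 lower for the difference of the pairs, and the block changed no other count (0 and 0, 4 and 4, 72 and 8, 1123 and 0). Limiting a fit to the libraries compared left every count within 1 of its value. Depth limits the lines of few reads: 3 reads are 0.334 FPKM in PEO1 replicate 3, near the lowest levels there.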
